A study of Arabidopsis thaliana with 15 samples.

Results

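In Arabidopsis thaliana, 62 protein-coding genes (of the 33602 genes counted, 0.185%) had more transcript after 6 h of UV-B both in seedlings that lack the UV-B photoreceptor UVR8 and in wild type. They were chosen by their values. Levels are CPM, read counts divided by the total of the library and scaled to one common total. The 3 libraries of a group were averaged, and 0.5 CPM was added. A gene was kept when the ratio of UV-B to white light was at least 1.8 in uvr8-6 and at least 1.8 in wild type. The ratio of the wild-type to the uvr8-6 ratio had to lie between 0.5 and 2, and the mean had to reach 3 CPM in a UV-B group. The UV-B ratios, and the levels in the 4 groups behind them, are therefore descriptions of the choice and carry no test.

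The groups used were uvr8-6 seedlings under white light with added narrowband UV-B, uvr8-6 seedlings in white light, wild-type seedlings under the same UV-B, pif4-101 pif5-1 seedlings in white light, and wild-type seedlings in white light, with 3 libraries each. All seedlings were of the Col-0 background, 4 days old, grown in continuous white light of 3.6 µmol m-2 s-1 on medium with sucrose, and harvested whole, 30 to a sample, from separate plates. The uvr8-6 line carries a mutated UVR8, and pif4-101 pif5-1 carries lesions in PIF4 and PIF5, which are transcription factors that promote elongation growth. No pif4-101 pif5-1 seedlings under UV-B were analysed here.

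Libraries held 19.3 to 30.4 M reads. UVR8 transcript lay between 14.8 and 20.7 CPM in the 6 uvr8-6 libraries and between 73.9 and 109 CPM in the other 9 libraries. PIF5 had 4.49, 4.83 and 5.30 CPM in pif4-101 pif5-1, against 106, 81.6 and 141 CPM in wild type in white light, whereas PIF4 transcript overlapped between these groups and so checks no label. Replicate 2 of uvr8-6 under UV-B stood apart: it was the highest of its group for 48 of the 62 genes. The same count over all genes is not given, and a rule on group means favours genes raised by a single high library. In replicate 2 of uvr8-6 under UV-B the seed storage markers summed to 84.4 CPM, against 13 and 13.2 CPM in the other libraries of that group. FRO5, a ferric reductase, had 0.234 CPM there against 28.6 and 32.2 CPM. FRO5 split other groups as well. It had 84.4 CPM in replicate 2 of uvr8-6 in white light against 0.345 and 0.126 CPM in the other two, 18.9 CPM in replicate 1 of wild type under UV-B against 0.19 and 0.0752 CPM, and 61.8 CPM in replicate 2 of wild type in white light against 0.197 and 0.506 CPM. In pif4-101 pif5-1 FRO5 had 0.598, 1.18 and 0.855 CPM. PIF4 was lower in the high-FRO5 libraries of each split group. In white light it had 64.1 CPM in uvr8-6 replicate 2 against 145 and 167 CPM, and 65.8 CPM in wild-type replicate 2 against 141 and 174 CPM. Under UV-B it had 34.7 CPM in wild-type replicate 1 against 86.8 and 65.95 CPM. In uvr8-6 under UV-B, replicates 1 and 3 had 55.25 and 62.3 CPM of PIF4 against 99.4 CPM in replicate 2. The uvr8-6 ratio without uvr8-6 UV-B replicate 2 is given for members that this library takes across 1.8 or moves by over 1.5 times. Leaving it out keeps only the libraries with 28.6 and 32.2 CPM of FRO5 in that group, beside a mixed white-light group. Ratios without it are therefore not balanced for FRO5. The part of FRO5, PIF4 and the seed markers in the ratios was not tested.

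UVR8 is a receptor protein that absorbs UV-B, leaves its dimer state and acts in the nucleus through COP1 and the transcription factor HY5 to switch on flavonoid and photoprotection genes. UV-B also acts without this receptor, through damage to DNA and other cell components. Of the 62 genes, 8 are enzymes or transporters on a list of suberin genes, and 3 more resemble them by annotation (AT5G08250, AT5G12420 and ABCG23). Suberin is a wall polymer of fatty acid derivatives, glycerol and ferulate. Endodermal and periderm cells, wounded tissue and the seed coat deposit it as a barrier to water and ions. Its monomers are elongated, hydroxylated or reduced in the endoplasmic reticulum, joined to glycerol by acyltransferases, feruloylated in the cytosol, and exported by ABC transporters of subfamily G before they are polymerised in the wall.

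The stretches of 250 bases upstream of the annotated gene starts are shown for the genes among these 11 whose windows hold an AC element, a site bound by MYB factors, together with the window of MYB41, a MYB regulator of suberin, and that of PELPK2, a wall protein gene. They come from the RefSeq assembly TAIR10.1 and are written 5′ to 3′ on the strand of the gene. The windows lie at chr4:13969526-13969775 (minus strand), chr5:1834797-1835046 (plus strand), chr5:16431054-16431303 (plus strand), chr3:20418911-20419160 (minus strand), chr5:6547178-6547427 (minus strand) and chr5:2958972-2959221 (minus strand). Capitals mark the AC element, searched as the word ACCAAAC, the word ACCAACC, the word ACCTAAC and the word ACCTACC on both strands. In MYB41 they mark the abscisic acid response core ACGTGG, and its first copy overlaps the G-box word CACGTG.
MYB41: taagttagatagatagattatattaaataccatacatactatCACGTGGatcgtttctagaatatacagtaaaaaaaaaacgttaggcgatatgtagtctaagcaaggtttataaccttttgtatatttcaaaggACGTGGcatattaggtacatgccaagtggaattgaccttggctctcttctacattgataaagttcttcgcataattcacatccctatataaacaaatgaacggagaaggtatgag
GPAT7: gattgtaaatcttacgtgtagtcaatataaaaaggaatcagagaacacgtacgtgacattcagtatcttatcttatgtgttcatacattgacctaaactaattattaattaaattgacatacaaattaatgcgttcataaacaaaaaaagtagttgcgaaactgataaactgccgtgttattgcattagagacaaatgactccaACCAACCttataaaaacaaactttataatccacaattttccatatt
RWP1: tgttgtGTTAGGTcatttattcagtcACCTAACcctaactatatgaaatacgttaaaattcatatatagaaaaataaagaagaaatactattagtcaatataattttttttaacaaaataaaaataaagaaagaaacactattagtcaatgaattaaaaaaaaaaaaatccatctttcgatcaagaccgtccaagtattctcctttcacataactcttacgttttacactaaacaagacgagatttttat
ABCG16: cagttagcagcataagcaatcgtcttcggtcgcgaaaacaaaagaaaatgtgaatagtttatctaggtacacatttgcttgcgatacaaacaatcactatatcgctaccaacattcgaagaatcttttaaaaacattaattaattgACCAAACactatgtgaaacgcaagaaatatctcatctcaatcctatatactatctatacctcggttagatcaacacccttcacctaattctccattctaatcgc
ABCG23: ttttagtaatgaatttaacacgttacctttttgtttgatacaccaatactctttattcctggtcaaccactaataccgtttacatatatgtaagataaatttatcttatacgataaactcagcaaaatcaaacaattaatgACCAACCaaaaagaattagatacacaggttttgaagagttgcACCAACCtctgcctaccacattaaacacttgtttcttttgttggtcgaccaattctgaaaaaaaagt
PELPK2: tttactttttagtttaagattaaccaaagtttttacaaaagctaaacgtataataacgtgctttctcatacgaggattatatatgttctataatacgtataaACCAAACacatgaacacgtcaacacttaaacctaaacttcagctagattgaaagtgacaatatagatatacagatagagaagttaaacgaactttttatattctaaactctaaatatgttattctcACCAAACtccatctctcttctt
GPAT7 and ABCG16 hold 1 AC element each, and RWP1, ABCG23 and PELPK2 hold 2. In RWP1 both copies lie between 244 and 218 bases before the gene start, the first of them on the opposite strand.

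The AC element, searched on both strands and chosen for the search after the members were known, was present in 16 of the 62 upstream windows (25.8%) and in 3674 of 26711 windows of all protein-coding genes (13.8%). Of the 11 suberin-related enzymes and transporters, the 4 printed above held it. The windows of the neighbours AT2G48130 and EDA4 share 224 bases, so their AC element and their ACGTGG are each counted in both genes. The W-box TTGAC, the core bound by WRKY factors, was in 36 windows (58.1%, against 45.0% of all windows). TGACG, the word of TGA factors, was in 17 (27.4%, against 18.6%), and a TTGACG counts for both. ACGTGG was in 7 (11.3%, against 8.31%) and the G-box in 3 (4.84%, against 6.58%), where CACGTGG counts for both. The SOG1 motif of the DNA damage response was in 3 windows (4.84%, against 9.68%). The mitochondrial dysfunction motif, whose every match is also a SOG1 match, was in 1 (1.61%, against 0.719%). CGCGTT, the rapid stress response element, was in 1 window (1.61%, against 2.6%), and the heat shock element was in none (0.393% of all windows). These shares describe letters in a window and name no bound factor.

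By the rule's own ratios the members ranged in uvr8-6 from 0.85 to 2.47 on the log2 scale (median 1.43) and in wild type from 0.86 to 2.62 (median 1.60), on the log2(mean + 0.5 CPM) scale. The median over the 20833 genes with enough reads was 0.00 in uvr8-6 and -0.16 in wild type, so the wild-type ratios of members stand above a slightly lowered background. Both ratios were 2-fold or more for 42 members and 4-fold or more for 9. Of all genes with enough reads, 0.974% reached a ratio of 1.8 in uvr8-6, 4.68% in wild type and 0.456% in both. The UV-B libraries lay above all white-light libraries in 57 of 62 members in uvr8-6 (9.45% of all genes), in 60 in wild type (14.3%) and in 55 in both genotypes (4.54%). The rule looked for such genes, so nothing is read from these shares.

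**Figure D1:**
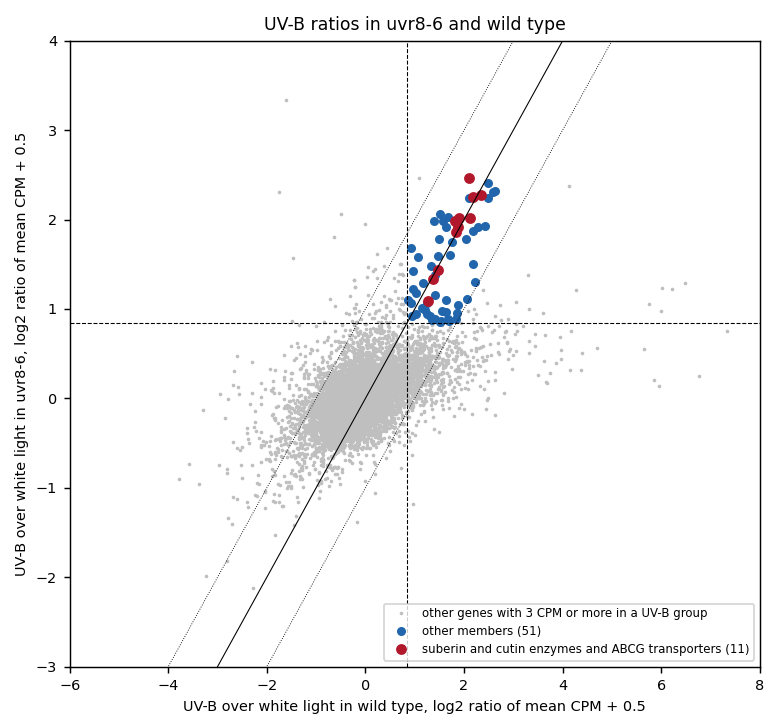
Log2 ratio of UV-B over white light in uvr8-6 (vertical axis) and in wild type (horizontal axis), from group means plus 0.5 CPM, for the 11 suberin and cutin enzymes and ABCG transporters (red), the other 51 members (blue) and other genes with 3 CPM or more in a UV-B group (grey). Dashed lines mark the ratio of 1.8, dotted lines the bounds on the ratio of ratios and the solid line equal ratios; with all 3 libraries of a group the red points lie close to that line, between 1.09 and 2.47 in uvr8-6.

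Of the members, 8 are or resemble enzymes that make suberin and cutin monomers, and all 8 differed between the genotypes by at most 0.19 in log2 ratio, with medians of 1.97 in uvr8-6 and 1.89 in wild type. This closeness rested on replicate 2 of uvr8-6 under UV-B. Without it all 8 ratios were lower in uvr8-6 than in wild type, by a median of -0.54 in log2 (range -1.07 to -0.11), and 2 of the 8 stayed within 0.25. GPAT7, an acyltransferase related to the suberin enzyme GPAT5, had 2.07, 11.7 and 3.02 CPM in uvr8-6 under UV-B, against 0.560, 0.806 and 0.923 CPM in uvr8-6 in white light. In wild type it had 3.96, 10.1 and 5.001 CPM under UV-B, against 0.789, 0.830 and 0.945 CPM in white light. Both UV-B groups lay wholly above their white-light groups, with ratios of 4.82 in uvr8-6 and 5.07 in wild type, and in uvr8-6 replicate 2 was far above the other two UV-B libraries. Without that library the uvr8-6 ratio was 2.41, and the wild-type ratio was then 2.1 times as large, past the bound of the rule.

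GPAT5, which builds suberin monoacylglycerols in roots and seed coats, had 6.60, 19.8 and 8.81 CPM in uvr8-6 under UV-B, against 2.59, 3.26 and 2.39 CPM in uvr8-6 in white light. Wild type had 10.97, 14.1 and 7.52 CPM under UV-B, against 2.17, 3.17 and 2.43 CPM in white light. The ratios were 3.77 in uvr8-6 and 3.68 in wild type, but the uvr8-6 ratio was 2.53 without replicate 2. No white-light library of either genotype reached the lowest UV-B library.

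CYP86B1, which hydroxylates very-long-chain fatty acids for suberin, followed the same course. It had 8.25, 19.8 and 9.28 CPM in uvr8-6 under UV-B, against 2.03, 3.07 and 2.98 CPM in uvr8-6 in white light. In wild type the values were 14.3, 15.5 and 9.06 CPM under UV-B and 2.66, 3.63 and 3.04 CPM in white light. Its ratio was 4.05 in uvr8-6 (2.90 without replicate 2) and 3.73 in wild type. FAR5, which reduces acyl chains to the primary alcohols of suberin, had ratios of 3.62 in uvr8-6 and 3.58 in wild type at means of 5.765 and 6.32 CPM under UV-B.

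KCS2, a ketoacyl-CoA synthase that elongates suberin chains, had 44.8, 66.3 and 48.6 CPM in uvr8-6 under UV-B, against 15.2, 29.2 and 17.9 CPM in uvr8-6 in white light. In the wild type, levels were 53.5, 49.1 and 36.5 CPM under UV-B, against 12.7, 23.8 and 16.8 CPM in white light. For KCS2 the groups did not overlap in either genotype. RWP1, the acyltransferase that adds ferulate to suberin (also named ASFT), had 84.3, 164 and 95.8 CPM in uvr8-6 under UV-B, against 38.1, 72.4 and 50.1 CPM in uvr8-6 in white light. In wild type it had 117, 138 and 84.1 CPM under UV-B, against 36.5, 59.6 and 43.2 CPM in white light. RWP1 had the smallest ratio of the group, 2.13 in uvr8-6 (1.68 without replicate 2) and 2.42 in wild type, beside 2.53 and 2.57 for KCS2.

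AT5G08250, annotated as a cytochrome P450, and AT5G12420, annotated as a WSD1-like O-acyltransferase, completed the group. AT5G08250 had 3.43, 10.7 and 3.11 CPM in uvr8-6 under UV-B, against 0.733, 0.844 and 0.839 CPM in uvr8-6 in white light. AT5G12420 had 11.97, 26.5 and 12.1 CPM in uvr8-6 under UV-B, against 2.20, 4.49 and 4.66 CPM in uvr8-6 in white light. Replicate 2 was again the highest of the uvr8-6 UV-B libraries, as for all 8 genes of the group. Without it the uvr8-6 ratio of AT5G08250 was 2.89 (4.78 with it) and that of AT5G12420 was 2.93, beside 4.52 and 4.34 in wild type. Leaving it out lowered the median log2 ratio of the 8 in uvr8-6 to 1.43, and 7 of the 8 still passed a ratio of 1.8.

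**Figure D2:**
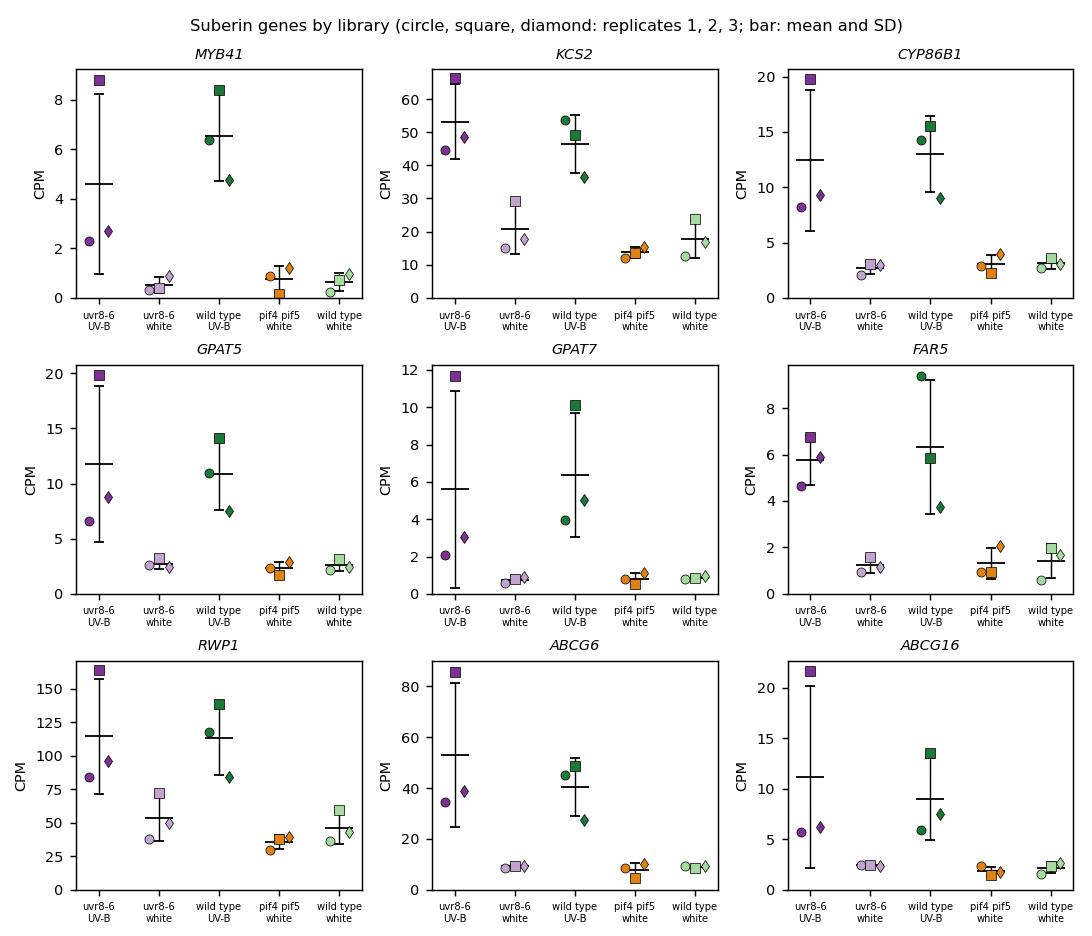
Level in CPM of MYB41, KCS2, CYP86B1, GPAT5, GPAT7, FAR5, RWP1, ABCG6 and ABCG16 in every library of the 5 groups, with circles, squares and diamonds for replicates 1, 2 and 3 and bars for the mean and SD of 3 libraries. In each panel all UV-B points lie above all white-light points, and the square of uvr8-6 under UV-B is the highest of its group.

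Of the ABC transporters of subfamily G, 3 were members. ABCG6, which with ABCG2 and ABCG20 is needed for the suberin barrier, had 34.5, 85.8 and 38.9 CPM in uvr8-6 under UV-B, against 8.66, 9.32 and 9.52 CPM in uvr8-6 in white light. The wild-type libraries held 45.2, 48.7 and 27.6 CPM under UV-B, against 9.32, 8.61 and 9.32 CPM in white light. The white-light libraries of both genotypes lay between 8.61 and 9.52 CPM. With all 3 libraries of a group the ratio was 5.54 in uvr8-6, the largest of all members there, and 4.28 in wild type. Without uvr8-6 UV-B replicate 2 the uvr8-6 ratio of ABCG6 was 3.846. That was below AT5G42530 (5.745), AT5G40590 (5.09), LEA7 (4.214) and ECS1 (4.025). ABCG16, which is needed with ABCG1 for the pollen wall, had ratios of 3.95 in uvr8-6 and 3.51 in wild type at means of 11.2 and 8.985 CPM under UV-B. ABCG23, whose substrate is not established, had ratios of 2.70 and 2.79 but only 3.49 and 3.11 CPM under UV-B. Without replicate 2 the median log2 ratio of the 3 transporters in uvr8-6 was 1.13, and the ratio of ABCG16 was 2.19.

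The reads of ABCG6, ABCG16 and ABCG23 can be told apart only as far as their sequences differ, and the counting rule for shared reads is not given in the sources used here.

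MYB41, which switches on suberin synthesis when it is expressed, had 2.29, 8.79 and 2.72 CPM in uvr8-6 under UV-B, against 0.302, 0.384 and 0.881 CPM in uvr8-6 in white light. Wild type had 6.38, 8.39 and 4.78 CPM under UV-B, against 0.247, 0.727 and 0.945 CPM in white light. The ratio was 4.99 in uvr8-6 and 6.16 in wild type, and the wild-type value, 2.62 on the log2 scale, was the largest of all members. Without replicate 2 of uvr8-6 under UV-B, the uvr8-6 ratio of MYB41 was 2.94, and the wild-type ratio was 2.097 times as large, past the bound of 2. MYB9, another regulator of suberin in the seed coat, had a ratio of 2.69 in uvr8-6 and 1.95 in wild type at means under 5 CPM. At this depth MYB41 in white light rests on 7, 10 and 21 reads in uvr8-6 and on 5, 14 and 28 reads in wild type. Neither factor overlapped between UV-B and white light in either genotype. PIL2, a bHLH factor of the phytochrome-interacting family, had ratios of 1.93 and 2.03, and the B-box factor AT2G47890 had 1.83 (1.55 without replicate 2) and 2.89. AT2G47890 was below wild type in all 3 uvr8-6 UV-B libraries.

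Cell wall proteins and oxidases formed a second group of 13 members, with median log2 ratios of 1.48 in uvr8-6 and 1.62 in wild type. PELPK1, a wall protein with a repeated short motif that affects germination and seedling growth, had 148, 269 and 148 CPM in uvr8-6 under UV-B, against 39.7, 39.5 and 39.4 CPM in uvr8-6 in white light. In wild type it had 233, 190 and 126 CPM under UV-B, against 45.3, 37.4 and 44.1 CPM in white light. White-light libraries were tightly grouped in both genotypes and every UV-B library was far above them, with ratios of 4.71 in uvr8-6 and 4.29 in wild type.

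PELPK2, whose gene lies 762 bases from PELPK1 on the same strand of chromosome 5, had 9.94, 24.9 and 9.58 CPM in uvr8-6 under UV-B, against 1.90, 2.92 and 2.35 CPM in uvr8-6 in white light. Wild-type seedlings gave 16.7, 20.5 and 11.9 CPM under UV-B, against 2.81, 2.65 and 2.03 CPM in white light. Its ratio was 5.31 in uvr8-6 and 5.64 in wild type. The repeats of the pair are alike, so reads may be exchanged between them and the values of PELPK2 are uncertain to that extent.

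ECS1, a wall-associated protein, had 138, 108 and 126 CPM in uvr8-6 under UV-B, against 36.9, 22.1 and 38.5 CPM in uvr8-6 in white light. Wild type had 139, 91.0 and 77.3 CPM under UV-B, against 34.0, 35.8 and 29.0 CPM in white light. Here replicate 2 was the lowest, not the highest, of the uvr8-6 UV-B libraries, and without it the log2 ratio in uvr8-6 was 2.01 instead of 1.92. The hydroxyproline-rich proteins AT2G22510 and AT4G38080 had ratios of 3.44 and 2.45 in uvr8-6 and of 2.79 and 2.23 in wild type.

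Glycine-rich AT2G05510 and GRP9 were among the members whose ratio in uvr8-6 rested on one library. AT2G05510 had 85.4, 327 and 127 CPM in uvr8-6 under UV-B, against 92.2, 57.0 and 88.4 CPM in uvr8-6 in white light. GRP9 had 20.2, 67.9 and 26.5 CPM in uvr8-6 under UV-B, against 26.4, 15.4 and 19.5 CPM in uvr8-6 in white light. Both genes' UV-B and white-light libraries overlapped in uvr8-6 and did not in wild type, where GRP9 had 85.1, 62.1 and 109 CPM under UV-B, against 21.4, 22.7 and 26.9 CPM in white light.

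Without replicate 2 their log2 ratios in uvr8-6 were 0.42 for AT2G05510 and 0.19 for GRP9. The 2 genes lie 21446 bases apart on chromosome 2 in a family of similar glycine-rich genes, so shared reads are possible.

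LAC12, a laccase that oxidises phenolic compounds in the wall, had 0.973, 6.03 and 0.863 CPM in uvr8-6 under UV-B, against 1.21, 0.537 and 1.13 CPM in uvr8-6 in white light. Without replicate 2 its log2 ratio was -0.04. In wild type it had 4.54, 7.03 and 5.38 CPM under UV-B, against 0.938, 2.13 and 1.38 CPM in white light, with no overlap. LAC5, a second laccase, had ratios of 2.79 in uvr8-6 and 2.501 in wild type and did not overlap in either. Its uvr8-6 ratio without replicate 2 was 1.775.

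The peroxidases AT1G68850 and AT5G64120 had ratios of 3.37 and 1.92 in uvr8-6 and of 3.38 and 2.38 in wild type. For AT1G68850 the uvr8-6 ratio was 2.076 without replicate 2. AT4G03540, annotated only by the protein family name UPF0497, had ratios of 3.95 and 2.98 at levels under 6 CPM.

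Lipid-transfer proteins, GDSL lipases and other hydrolases made up 8 members, with median log2 ratios of 1.35 in uvr8-6 and 1.71 in wild type. AT5G13900, a lipid-transfer family protein, had 4.61, 11.1 and 3.54 CPM in uvr8-6 under UV-B, against 0.647, 1.73 and 1.59 CPM in uvr8-6 in white light. Wild type had 10.5, 13.8 and 6.05 CPM under UV-B, against 1.14, 1.71 and 1.55 CPM in white light. No library of the 2 conditions overlapped, and the ratio was 3.79 in uvr8-6 (2.51 without replicate 2) and 5.40 in wild type.

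AT3G50400, annotated as a GDSL lipase, had 4.53, 14.4 and 5.01 CPM in uvr8-6 under UV-B, against 1.59, 2.11 and 1.51 CPM in uvr8-6 in white light. Wild type had 11.2, 12.9 and 7.33 CPM under UV-B, against 1.58, 1.45 and 2.26 CPM in white light, and the ratios were 3.78 in uvr8-6 (2.35 without replicate 2) and 4.84 in wild type. The neighbours AT2G48130 and EDA4, lipid-transfer proteins on opposite strands of chromosome 2 with 276 bases between them, had ratios of 1.83 and 2.02 in uvr8-6 and of 2.55 and 2.20 in wild type. Without replicate 2 the uvr8-6 ratios were 1.52 for AT2G48130 and 1.55 for EDA4. In both genotypes their libraries did not overlap between UV-B and white light.

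AT4G36610, an alpha/beta-hydrolase, had ratios of 3.65 in uvr8-6 (2.12 without replicate 2) and 4.54 in wild type, while AT4G12830, of the same superfamily, had 1.82 and 3.25. AT4G12830 was below wild type in all uvr8-6 UV-B libraries. The GDSL lipase AT2G23540 had the smallest wild-type ratio of the members, 1.82, with 12.4, 3.49 and 3.20 CPM under UV-B, against 2.27, 3.17 and 4.39 CPM in white light, where the libraries overlapped. Without wild-type UV-B replicate 1 that ratio was 1.02.

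Of the 6 dehydration, cold and senescence genes, LTI78 (also known as RD29A), a cold and dehydration reporter gene, had 145, 130 and 149 CPM in uvr8-6 under UV-B, against 48.8, 70.2 and 70.7 CPM in uvr8-6 in white light. In the wild type, levels were 134, 176 and 81.4 CPM under UV-B, against 47.5, 49.9 and 49.4 CPM in white light. The ratio was 2.22 in uvr8-6 and 2.65 in wild type, and the groups did not overlap in either. LTI30, a dehydrin that protects membranes during drying and cold, had 40.8, 57.0 and 43.2 CPM in uvr8-6 under UV-B, against 14.6, 18.9 and 15.4 CPM in uvr8-6 in white light.

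LTI30 in wild type had 65.8, 69.6 and 61.2 CPM under UV-B, against 12.1, 15.6 and 14.8 CPM in white light, so the uvr8-6 UV-B libraries all lay below those of wild type. LEA7, a late embryogenesis abundant protein, went the other way, with 11.2, 9.69 and 12.9 CPM in uvr8-6 under UV-B against 6.38, 6.87 and 4.44 CPM in wild type under UV-B. Its ratio was 3.95 in uvr8-6 and 2.61 in wild type. CP1, a calcium-binding protein, and AT5G61820, annotated as stress up-regulated Nod 19, had ratios of 1.90 and 2.33 in uvr8-6 and of 1.93 and 1.94 in wild type, and CP1 had 1.73 in uvr8-6 without replicate 2. SAG29, a sugar transporter of senescing leaves, had a ratio of 1.97 in uvr8-6 (1.56 without replicate 2) and 2.95 in wild type, but in wild type the libraries overlapped, with 7.72, 2.51 and 1.62 CPM under UV-B against 0.543, 1.97 and 0.506 CPM in white light. Without wild-type UV-B replicate 1 that ratio was 1.70.

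Redox, detoxification and hormone enzymes gave 8 members with medians of 1.22 in uvr8-6 and 1.36 in wild type, and in all 8 replicate 2 was the highest uvr8-6 UV-B library. GSTU22, a tau-class glutathione transferase, had 16.03, 26.7 and 17.1 CPM in uvr8-6 under UV-B, against 5.17, 6.45 and 5.96 CPM in uvr8-6 in white light. In wild type it had 8.89, 12.2 and 10.9 CPM under UV-B, against 4.34, 6.07 and 5.67 CPM in white light. The ratio was 3.216 in uvr8-6 and 1.90 in wild type, the largest excess of uvr8-6 over wild type among the members (0.76 in log2). This rank rested on replicate 2 of uvr8-6 under UV-B. Without it the uvr8-6 ratio of GSTU22 was 2.69 and its excess 0.499 in log2, below the 0.691 of LEA7. GSTU8, of the same class, had ratios of 2.095 in uvr8-6 and 1.89 in wild type.

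AOX1A, the alternative oxidase of mitochondria that is a marker of mitochondrial stress, had 27.7, 41.0 and 30.4 CPM in uvr8-6 under UV-B, against 19.7, 12.9 and 20.3 CPM in uvr8-6 in white light. Wild type had 35.8, 51.4 and 43.0 CPM under UV-B, against 16.3, 14.58 and 17.35 CPM in white light, and the ratios were 1.85 in uvr8-6 (1.63 without replicate 2) and 2.65 in wild type. IAGLU, which joins glucose to the auxin indole-3-acetic acid, had 67.5, 88.0 and 72.3 CPM in uvr8-6 under UV-B against 62.8, 54.3 and 60.3 CPM in wild type under UV-B. With white-light levels of 29.7, 19.1 and 26.0 CPM in uvr8-6 and of 34.2, 19.4 and 30.4 CPM in wild type, its ratios were 3.00 in uvr8-6 and 2.09 in wild type.

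CYP72A8, a cytochrome P450, had ratios of 4.16 in uvr8-6 and 2.86 in wild type, and UGT73B1, a glucosyltransferase, had 1.89 (1.64 without replicate 2) and 2.49. GulLO2, annotated as a D-arabinono-1,4-lactone oxidase family protein, had 7.53, 45.3 and 8.85 CPM in uvr8-6 under UV-B, against 11.2, 6.06 and 11.8 CPM in uvr8-6 in white light. Without replicate 2 its log2 ratio there was -0.23. The wild-type libraries held 20.8, 34.8 and 40.9 CPM under UV-B, against 9.87, 6.07 and 9.28 CPM in white light.

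The other 12 members had no shared role. AT5G40590, a cysteine- and histidine-rich protein, was the most even of the highly ranked genes, with 7.36, 7.08 and 7.99 CPM in uvr8-6 under UV-B, against 1.29, 1.23 and 0.797 CPM in uvr8-6 in white light. In wild type it had 6.70, 6.23 and 8.27 CPM under UV-B, against 0.740, 1.19 and 0.338 CPM in white light. Its ratio was 4.97 in uvr8-6 and 6.02 in wild type, and replicate 2 did not stand out. AT5G42530, with no known role, was more scattered, with 15.1, 6.34 and 13.4 CPM in uvr8-6 under UV-B and 30.9, 4.82 and 8.65 CPM in wild type under UV-B, against 1.85, 2.42 and 1.93 CPM in uvr8-6 and 0.691, 4.36 and 1.69 CPM in wild type in white light. Its wild-type ratio of 5.57 was 2.635 without UV-B replicate 1 and 9.05 without white-light replicate 2.

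AT4G24130, of a family of unknown function, had ratios of 1.95 in uvr8-6 (1.61 without replicate 2) and 3.10 in wild type. The transporter family gene AT1G68570 had ratios of 1.98 in uvr8-6 and 2.32 in wild type. AT2G34610, annotated as a cotton fiber protein, had 3.44 and 4.13, and AT5G24080, a protein kinase, had 4.07 and 3.20. AT1G13650, AT1G29720 and AT1G70820 had ratios of 1.94, 2.47 and 1.801 in uvr8-6 against 3.64, 4.64 and 2.84 in wild type, so wild type was the higher in all 3. AT1G29720 rested on 0.545 to 2.67 CPM in uvr8-6 under UV-B against 0.168 to 0.729 CPM in white light, where the libraries overlapped.

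CRB, a chloroplast RNA-binding protein, had 602, 399 and 591 CPM in uvr8-6 under UV-B, against 281, 326 and 255 CPM in uvr8-6 in white light. Wild type had 1021, 778 and 1044 CPM under UV-B, against 240, 375 and 277 CPM in white light, so the ratio was 1.85 in uvr8-6 and 3.18 in wild type. Per kilobase of exon, mean levels under UV-B ran from 0.476 CPM for AT1G29720, a receptor-like kinase, to 240 CPM for CRB in uvr8-6. The same genes had 1.23 and 428 CPM per kilobase in wild type under UV-B.

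**Figure D3:**
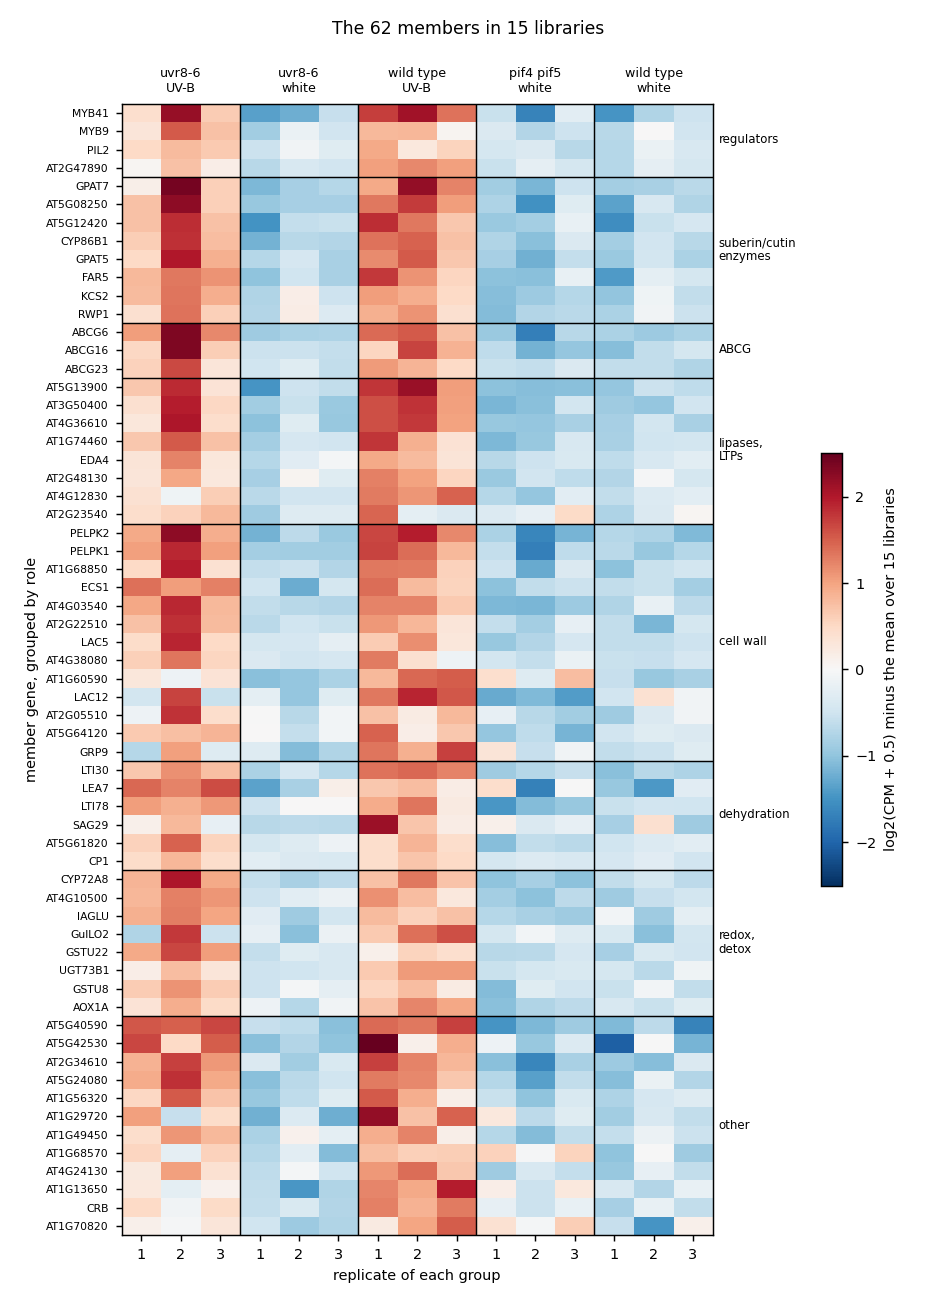
Level of the 62 members (rows, grouped by role) in the 15 libraries (columns, by group and replicate), as log2(CPM + 0.5) minus each gene's mean over the 15, red above and blue below it. The uvr8-6 UV-B column of replicate 2 is the reddest of its group, with a member median of 1.35 against 0.53 and 0.63 in the other two libraries.

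Under UV-B the uvr8-6 and wild-type libraries of 52 members overlapped. All uvr8-6 libraries lay above wild type for LEA7, IAGLU and GSTU22 (3 members, 39.2% of all genes) and below it for 7 (11.4%), namely LTI30, AT1G60590, AT1G68570, AT1G13650, CRB, AT2G47890 and AT4G12830. The difference of the log2 ratios, uvr8-6 minus wild type, had a median of -0.09 and was within 0.25 for 27 members, below -0.5 for 15 and above 0.5 for 4. The lowest value was -0.95 for GRP9. Without replicate 2 of uvr8-6 under UV-B the median difference was -0.52, with 20 members within 0.25, 32 below -0.5 and 8 larger in uvr8-6 than in wild type. The bound of 2 on the ratio of ratios limits these values, so nothing is read from them.

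Median positions of the members in single libraries, each gene relative to its mean over the 15, were 0.53, 1.35 and 0.63 in uvr8-6 under UV-B and -0.69, -0.53 and -0.51 in uvr8-6 in white light. In wild type they were 1.23, 1.11 and 0.68 under UV-B and -0.77, -0.47 and -0.48 in white light. The pif4-101 pif5-1 libraries in white light stood at -0.72, -0.82 and -0.47. Wild-type UV-B replicate 3 was the lowest of its group for 39 of 62 members, and the same count over all genes is not given. Over all genes tested the median positions were 0.005, 0.136 and 0.092 in uvr8-6 under UV-B and -0.132, -0.073 and -0.191 in wild type under UV-B. There too uvr8-6 replicate 2 was the highest and wild-type replicate 3 the lowest of its group.

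Without replicate 2 of uvr8-6 under UV-B, the median log2 ratio of the members in uvr8-6 was 1.18 instead of 1.43, and 48 of 62 still reached a ratio of 1.8. The rule then gave 56 genes, of which 42 are members. The 14 members under 1.8 without it were GRP9, AT2G05510, LAC5, GulLO2, AT2G47890, AT2G48130, EDA4, AOX1A, AT4G24130, UGT73B1, LAC12, SAG29, RWP1 and CP1. Another 5, namely MYB41, GPAT7, AT5G13900, AT3G50400 and AT4G36610, left the rule because the wild-type ratio was then over 2 times the uvr8-6 ratio, and AT4G10500 left it for its level. The library moved the uvr8-6 ratio of 13 members by over 1.5 times. The 8 suberin and cutin enzymes had a median log2 ratio of 1.43 in uvr8-6 without it, beside 1.89 in wild type.

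**Figure D4:**
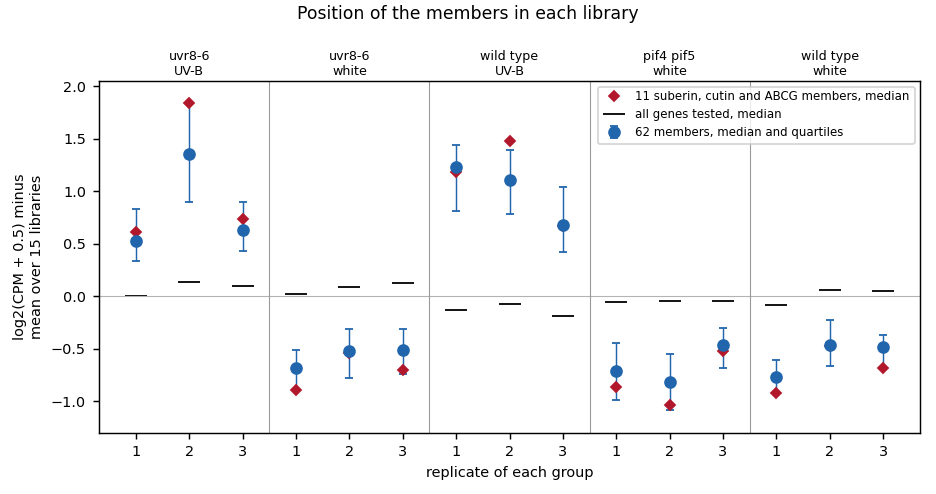
Position of each library (horizontal axis, by group and replicate) as log2(CPM + 0.5) minus the gene's mean over 15 libraries: circles with bars are the median and quartiles of the 62 members, red diamonds the median of the 11 suberin and ABCG members, and dashes the median of all genes tested. The uvr8-6 UV-B libraries stand at 0.53, 1.35 and 0.63 and the wild-type UV-B libraries between 0.68 and 1.23, and all white-light libraries lie below 0.

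Among 13 lists of related genes, the suberin list held 22 genes, of which 10 are members. Of these 22, 13 passed a ratio of 1.8 in uvr8-6, 10 in wild type and 10 in both, and the list median of the log2 ratio was 1.08 in uvr8-6 and 0.60 in wild type, beside 0.00 and -0.16 over all genes. The list and the members were both chosen with these ratios known, so the counts are no independent support. The 22 genes summed to 587 to 858 CPM in uvr8-6 under UV-B, against 475 to 561 CPM in uvr8-6 in white light. Their sum in wild type was 508 to 744 CPM under UV-B and 452 to 525 CPM in white light, so the wild-type libraries overlapped. Without replicate 2 of uvr8-6 under UV-B, 10 of the 22 passed in uvr8-6 and the list median was 0.72. FAR4, which makes suberin alcohols, had log2 ratios of 1.07 in uvr8-6 and 0.31 in wild type, ABCG20 had 1.39 and 0.68, MYB107, a regulator of seed coat suberin, had 0.99 and 0.27, and CYP86A1, a hydroxylase of suberin acids, had 0.69 and 0.46. Without that library the uvr8-6 values were 0.53 for FAR4, 1.04 for ABCG20, 0.48 for MYB107 and 0.69 for CYP86A1.

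FAR1, a suberin reductase, had 0.05 in uvr8-6 and -2.56 in wild type. KCS20, an elongase close to KCS2, had -0.16 in uvr8-6 and 0.15 in wild type. MYB92, MYB93, MYB53, MYB39, ABCG1 and ABCG2 were also outside the members. In that order their uvr8-6 ratios were 1.21, 1.42, 1.2, 1.31, 1.76 and 1.35, all under 1.8. Without replicate 2 of uvr8-6 under UV-B these ratios were 1.04, 1.36, 1.185, 1.26, 1.22 and 1.21.

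The other lists held few members. The detoxification list had 3 members of 42 tested genes, with 18 genes past a ratio of 1.8 in uvr8-6, 7 in wild type and 4 in both. The mitochondrial list had 1 member of 8 (AOX1A) and the abscisic acid list 1 of 12 (LTI78). In the mitochondrial list 1 gene passed the ratio in uvr8-6, 2 in wild type and 1 in both, and in the abscisic acid list 3, 3 and 2 did. There was no member among 29 DNA damage genes, 30 stress transcription factors, 12 camalexin and salicylic acid genes, 15 heat shock and unfolded protein genes or 15 phenylpropanoid genes. In that order, 3, 2, 1, 0 and 0 of these genes passed the ratio in uvr8-6, 3, 4, 1, 1 and 7 passed it in wild type, and none passed both. Without replicate 2 of uvr8-6 under UV-B the uvr8-6 counts were 13 in the detoxification list, 0 in the mitochondrial list, 1 in the abscisic acid list, 1 among stress transcription factors and 1 among phenylpropanoid genes. Of the 17 UVR8 pathway markers, 14 passed the ratio in wild type, 4 in uvr8-6 and 4 in both, and none was a member. The rule's other bounds, on the ratio of ratios or on the level, left out the 4 past both. Nothing is therefore read from their absence. CHS, chalcone synthase, had 68.5 ± 25.3 CPM in uvr8-6 and 2465 ± 249 CPM in wild type under UV-B (SD, n = 3 each), with log2 ratios of 1.29 in uvr8-6 and 6.48 in wild type.

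Whole seedlings hold roots, green tissue and seed reserves, and in such samples fewer cells of a type and less RNA per cell cannot be told apart. The 19 tested root markers, which include the Casparian strip genes of the endodermis, held no gene past a ratio of 1.8 in either genotype, with medians of -0.03 in uvr8-6 and -0.33 in wild type. Casparian strip genes summed to 471 to 576 CPM in uvr8-6 under UV-B, 502 to 610 CPM in uvr8-6 kept in white light, 325 to 486 CPM in wild type under UV-B and 445 to 659 CPM in wild type in white light. The green tissue markers summed to 24100 to 36600 CPM in uvr8-6 under UV-B against 23000 to 28200 CPM in uvr8-6 in white light, and to 35200 to 47300 CPM in wild type under UV-B against 27000 to 29400 CPM in white light. Of the 10 green markers, 0 passed the ratio in uvr8-6 and 2 in wild type, and of 7 tested seed markers 4 did in uvr8-6 and 0 in wild type. Without replicate 2 of uvr8-6 under UV-B, 2 green and 0 seed markers passed in uvr8-6. No defining marker of the root or green lists was at 0 in these groups.

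The seed storage sum was 13 to 84.4 CPM in uvr8-6 under UV-B and 5.37 to 18.0 CPM in its white-light libraries, and it was 2.97 to 7.87 CPM in wild type under UV-B and 5.81 to 14.4 CPM in wild type in white light. The part of these markers in the UV-B ratios of the members was not tested.

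The only comparison tested was that of the pif4-101 pif5-1 seedlings, whose libraries the rule did not use, with wild type kept in white light. It was fitted with edgeR's quasi-likelihood model on all 15 libraries. The rule used the wild-type white-light libraries and favours genes that are low in them, which raises this fold change. All 62 members were tested. By sign, 27 were higher and 35 lower in pif4-101 pif5-1, with a median log2 fold change of -0.03, beside 0.00 over all genes.

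The test called 1 of the 62 members (5.26% of all genes were called): 1 rose (1.72% of all genes) and 0 fell (3.54%). It was AT1G60590, annotated as a pectin lyase-like protein, with 14.7, 8.58 and 18.98 CPM in pif4-101 pif5-1, against 7.15, 5.40 and 6.01 CPM in wild type in white light. The libraries did not overlap, and the log2 fold change was 1.24 ± 0.27 (SE, n = 3 each) with an adjusted p = 0.0187 (edgeR quasi-likelihood F test, Benjamini-Hochberg). Over 13 alternatives the adjusted p ran between 0.000384 and 0.0897, and 5 of them took it over the threshold. By edgeR it was 0.0718 without wild-type white-light replicate 3, 0.0643 without pif4-101 pif5-1 replicate 1, 0.0897 without its replicate 3 and 0.0704 with the 6 compared libraries alone, and it was 0.0506 by limma-voom. Under UV-B the same gene had 13.4, 9.85 and 13.8 CPM in uvr8-6 and 19.5, 30.3 and 31.8 CPM in wild type.

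At an unadjusted p under 0.05 there were 6 members, 3 higher and 3 lower, beside 20.2% of all genes, so the count is no result about the members. AT1G68570, of the major facilitator superfamily, had 6.92, 4.38 and 6.81 CPM in pif4-101 pif5-1, against 1.97, 4.46 and 2.19 CPM in wild type in white light (log2 fold change 1.16 ± 0.33, SE, adjusted p = 0.0555 by edgeR). LTI78 had 25, 32.7 and 36.1 CPM in pif4-101 pif5-1, against 47.5, 49.9 and 49.4 CPM in wild type in white light (-0.59 ± 0.20, adjusted p = 0.116 by edgeR). LAC12 had 0.342, 0.442 and 0.263 CPM in pif4-101 pif5-1, against 0.938, 2.13 and 1.38 CPM in wild type in white light (-2 ± 0.70, adjusted p = 0.118 by edgeR). AT1G70820 and AT4G03540 had log2 fold changes of 0.91 and -0.99 with adjusted p-values of 0.17 and 0.185 by edgeR.

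No other tool or fit called more than 3 members in this comparison. DESeq2 called AT1G60590 and AT1G68570 higher and LAC12 lower, and limma-voom called 0. Without wild-type white-light replicate 2, edgeR called AT1G60590 and AT1G68570 higher and IAGLU lower. IAGLU then had a log2 fold change of -0.63 (adjusted p = 0.0481 by edgeR). The pif4-101 pif5-1 libraries lay above all wild-type libraries for 2 members (6.35% of all genes) and below them for 9 (14.2%), and overlapped for 51.

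None of the 8 suberin and cutin enzymes and 3 ABCG transporters passed the test here. The enzymes had a median log2 fold change of -0.01 (range -0.31 to 0.24) and all 8 overlapped between the groups. FAR1, which is no member, fell in pif4-101 pif5-1 with a log2 fold change of -3.15 ± 0.68 (SE, adjusted p = 0.017 by edgeR), the only call of the 22 on the suberin list. The 22 genes of that list summed to 281 to 368 CPM in pif4-101 pif5-1, against 452 to 525 CPM in wild type in white light. These sums did not overlap. The Casparian strip genes summed to 172 to 284 CPM in pif4-101 pif5-1, against 445 to 659 CPM in wild type in white light, and among the root markers CASP1, CASP2, CASP4 and ESB1 fell and BGLU21 rose by the same test. The green tissue markers summed to 35100 to 44400 CPM in pif4-101 pif5-1, against 27000 to 29400 CPM in wild type in white light. The part of these root and green marker differences in the values of AT1G60590 and the suberin genes was not tested.

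**Figure D5:**
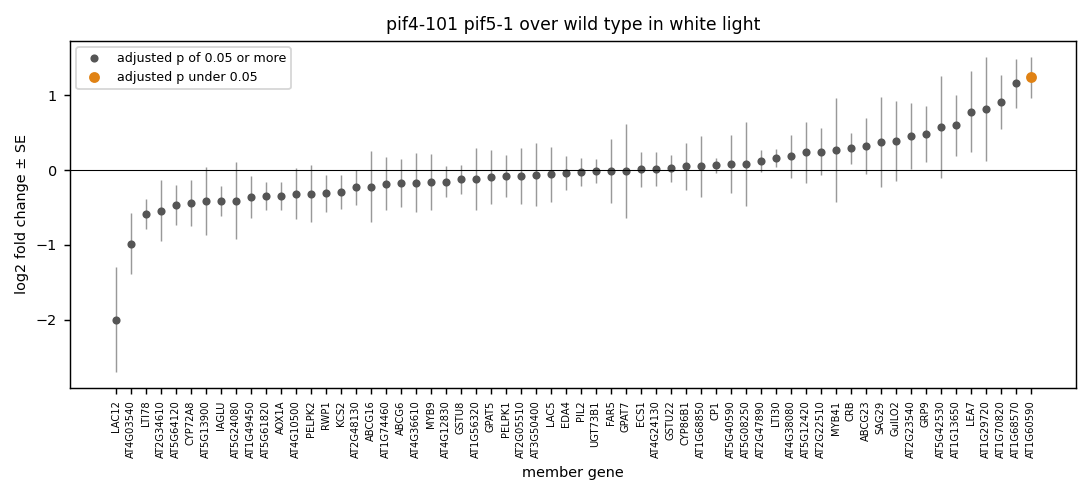
Log2 fold change of each member in white light, pif4-101 pif5-1 over wild type, with standard errors, ordered by fold change from low to high. AT1G60590 is the only member past an adjusted p of 0.05, at 1.24, and the suberin and cutin enzymes lie between -0.31 and 0.24.

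At the edges of the rule the values were close. Just inside the uvr8-6 ratio were AT1G70820 at 1.801, AT4G12830 at 1.82 and AT2G47890 at 1.83, and just outside were CA1 at 1.79, ABCC2 at 1.78 and ABCA7 at 1.77. For the wild-type ratio AT2G23540 at 1.82, GSTU8 at 1.89 and GSTU22 at 1.90 were inside, and AT1G30700 at 1.74, scpl28 at 1.74 and ASN2 at 1.72 outside. The lowest levels inside were 3.21 CPM for AT4G10500, 3.49 CPM for ABCG23 and 3.59 CPM for AT5G24080, and LAC16 at 2.66 CPM, AT1G07450 at 2.51 CPM and AT1G78990 at 2.07 CPM were outside.

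The ratio of the wild-type to the uvr8-6 ratio was 1.93 for GRP9, 1.92 for AT1G60590 and 1.88 for AT1G13650 inside the upper bound, and 2.14 for ANNAT7, 2.24 for GSTU4 and 2.30 for AT1G54540 outside it. At the lower bound GSTU22 at 0.592, LEA7 at 0.661 and CYP72A8 at 0.688 were inside and AT4G01870 at 0.385 was outside.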

How the data were processed

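RNA of whole seedlings, 30 per sample, was made into stranded mRNA libraries and read as single ends, per the labels' protocols. Tools listed in the submitters' processing notes, with no role stated, are STAR 2.5.3a and HTSeq 0.9.1, with edgeR 3.22.3, FastQC 0.11.5 and the build TAIR10. The deposited table holds raw counts per gene and library, neither scaled nor pooled by the authors. The normalized signal the authors deposited was used only as an alternative to CPM. Whether counting used the strand is not given in the sources used here, so reads of overlapping genes may be misassigned.

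CPM was the count divided by the column sum and scaled to 1e6 reads. The members and lists were chosen with earlier results of these data known, and roles were assigned after the members were known. Named were the 10 members with the largest smaller ratio at 5 CPM or more in both UV-B groups and non-overlapping libraries, the 5 with the highest level under UV-B, members on the lists, members called in pif4-101 pif5-1, the 3 genes on either side of each threshold, and gene families and neighbours. Other members were named after their values were seen, to describe each role group. The comparison of pif4-101 pif5-1 with wild type was fitted with edgeR 4.0.16 in R 4.3.3 by the quasi-likelihood test over 20833 genes kept by filterByExpr, with 1 term per group, TMM scaling (factors 0.863 to 1.11) and Benjamini-Hochberg adjustment. Tests were two-sided at an adjusted p of 0.05. DESeq2 1.42.0 and limma-voom (limma 3.58.1) were alternatives, and the fit was tested on simulated counts. Upstream windows, 250 bases before the gene start, came from RefSeq's TAIR10.1 annotation, and 32835 genes matched it by identifier. The call of 1 root marker is not reported here.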

Additional observations from a re-analysis of the deposited data

How the results depend on the processing

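The number of members was 62, and it was 173 with a ratio of 1.5, 40 with a mean of 10 CPM, 67 with TMM-scaled sizes (55 shared), 56 with 1 CPM added (55 shared), 42 with a ratio of 2, 70 with group medians (45 shared) and 63 in the authors' normalized table (52 shared). Without mitochondrial and chloroplast genes in the column sums it was 62 (62 shared). This alternative, the search for the AC element and the uvr8-6 ratios without replicate 2 were chosen after seeing the data. Leaving out each of the 12 libraries in turn gave 56 to 75, and 26 members were kept in all 12. The members with libraries clear of overlap in both genotypes numbered 55, and 56 with TMM.

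In pif4-101 pif5-1 against wild type, 1 member was called. No filter on low counts gave 2 (AT1G60590 and AT1G68570), DESeq2 3 and limma-voom 0, and leaving out 1 library in turn gave 0 to 3. Genes called in all were 1095, and 1797 by DESeq2 and 278 in the 6 compared libraries alone, where the member called was LAC12, as lower (adjusted p = 0.0472 by edgeR). Leaving out 1 library gave 335 to 1459 genes, with 381 and 412 without pif4-101 pif5-1 replicates 1 and 3, and 335 and 492 without wild-type replicates 1 and 3. AT1G60590 kept its direction in all 13 alternatives. Between pif4-101 pif5-1 and wild type in white light, libraries of equal number correlated at 0.0756, 0.185 and 0.171 in their deviations. The numbers are therefore not taken as a pairing in this comparison, and with the replicate block 1277 genes and 1 member were called. For the other groups no such correlation is given. In white light, replicate 2 of uvr8-6 and of wild type shared high FRO5 (84.4 and 61.8 CPM) and low PIF4 (64.1 and 65.8 CPM). The causes of these changes were not tested. Depth limits the members with means under 1 CPM in white light, 11 in uvr8-6, 11 in pif4-101 pif5-1 and 9 in wild type.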
